A study of Rattus norvegicus with 6 samples.

Results

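The miR-200 family (miR-141, miR-200a, miR-200b, miR-200c and miR-429) and miR-205 were followed in 6 small RNA libraries from the testes of Sprague-Dawley rats, 3 from rats with streptozotocin (STZ)-induced diabetes sampled at 8 weeks and 3 from normal rats. Members were the entries of the deposited miRNA table that carry these names, either arm of the hairpin included, and 9 of the 721 entries matched. STZ is a toxin that kills pancreatic beta cells. According to the study's methods the diabetic rats ate a high-fat diet before a single STZ injection and control rats received citrate buffer. The sources used here do not say whether the controls also ate that diet, nor the age of the rats. The diabetic group therefore carries the diet and STZ together, and their parts cannot be told apart here. miR-205 (rno-miR-205 in the table) was chosen by its measured difference between these same diabetic and normal libraries, so its values are a description without a test. The other 8 members were taken by family name.

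miR-200 miRNAs and miR-205 are typical of epithelial cells. The family silences Zeb1 and Zeb2, the transcription factors that repress E-cadherin, and thereby holds cells in an epithelial state. miR-205 also targets Zeb1 and Zeb2 and is abundant in stratified and glandular epithelium. The duct of the epididymis, which lies against the testis, is lined by an epithelium. Levels in whole tissue do not show which cells a read came from. The comparison asked whether the miR-200 family was lower in the diabetic libraries together with miR-205.

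RefSeq (build GRCr8) gave mature sequences for 6 of the 9 members. Those of miR-200a-3p, miR-200b-3p and miR-429 were not among them. The sequences below let miR-205 be compared with the family members that had an entry. They run 5′ to 3′, and capitals mark the seed, bases 2 to 8, which pairs with target mRNAs.
miR-205: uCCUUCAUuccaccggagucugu
miR-200c-3p: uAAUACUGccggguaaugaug
miR-141-3p: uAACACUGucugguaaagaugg
miR-141-5p: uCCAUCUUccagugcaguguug
miR-200a-5p: cAUCUUACcggacagugcugg
miR-200b-5p: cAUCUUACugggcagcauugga
Counted from the 5′ end, miR-141-3p and miR-200c-3p had the same base at 17 of 21 positions. They differed by C4U, U9C, U11G and A17U, with the base of miR-141-3p first, and 1 of these lies in the seed. Of the 3 passenger arms, miR-200a-5p and miR-200b-5p shared the seed AUCUUAC, and miR-141-5p had the seed CCAUCUU. miR-205 had the same base as miR-200c-3p at 5 of 21 positions and as miR-141-3p at 7 of 22. It was closer to miR-141-5p, with the same base at 9 of 22 positions and at 5 of the 7 seed positions. How reads matching several family members were shared out is not given in the sources used here, and the split between single family members is uncertain for that reason. In the RefSeq gene order Mir429, Mir200a and Mir200b stood together, as did Mir141 and Mir200c, while Mir205 lay apart with Camk1g and a long non-coding RNA gene as its neighbours.

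All members were scarce. Library depth ran from 305476 to 549446 reads over the listed miRNAs, and the 9 members together took 362 of 2690909 reads. Values are CPM, in which every library's listed miRNAs add up to the same total, and 1 read was worth from 1.82 to 3.27 CPM. miR-200a-3p was the most abundant member, ranking 239th of 721 entries by mean level, and miR-205 ranked 300th. The passenger arms miR-141-5p, miR-200a-5p and miR-200b-5p held 1, 1 and 4 reads over all libraries and were not tested. The remaining 6 members reached at least 1 CPM in at least 3 libraries, the filter used for testing. The miRNAs miR-34b, miR-34c and miR-449, which mark testicular germ cells, took between 307045 and 356042 CPM in every library.

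miR-205 was lower in every diabetic library than in any normal one. It stood at 6.5, 10.8 and 9.1 CPM in diabetic replicates 1, 2 and 3, from 2, 4 and 5 reads. In normal replicates 1, 2 and 3 it stood at 54.4, 24.4 and 17.0 CPM, from 24, 12 and 9 reads. The diabetic values lie close together and the normal values spread over a wide range, with normal replicate 1 far above the others. Groups without overlap and lower in diabetes made up 6.92% of all miRNAs tested, and nothing is read from this for a miRNA chosen by that difference. The diabetic mean of 8.80 ± 2.17 and the normal mean of 31.9 ± 19.8 CPM (SD over n = 3) were 3.63-fold apart, and the difference on the log2(CPM + 1) scale was -1.61 with a standard error of 0.59. Without normal replicate 1 the normal mean was 20.7 CPM and the means were 2.35-fold apart. Counting error alone is wide at this depth: the exact 95% Poisson interval was 0.793 to 23.7 CPM for the 2 reads of diabetic replicate 1 and 7.76 to 32.2 CPM for the 9 reads of normal replicate 3. These intervals cover counting error only, since no molecular identifiers are described. In whole tissue, fewer cells that make a miRNA and less of it per cell cannot be told apart.

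**Figure D1:**
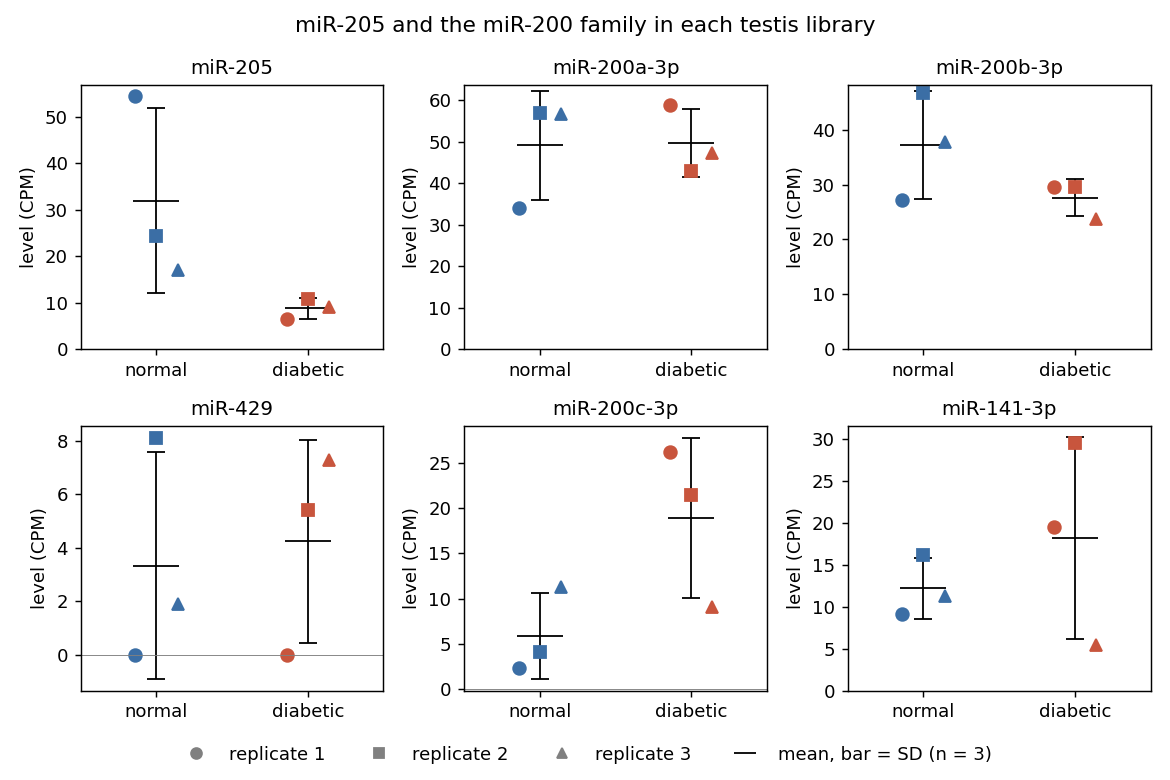
Level in CPM (vertical axes, scaled separately for each miRNA) of the 6 tested members in the 3 normal and 3 diabetic libraries; symbols give the replicate number, dashes the group mean and bars the SD. The diabetic miR-205 values (6.5 to 10.8 CPM) lie below all normal values (17.0 to 54.4 CPM), whereas the groups overlap for each of the other members.

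The summed level of the miR-200 family overlapped between the groups, with the higher mean in the diabetic libraries. It was 134.2, 129.1 and 98.3 CPM in diabetic replicates 1, 2 and 3, from 41, 48 and 54 reads. In normal replicates 1, 2 and 3 it was 77.1, 133.9 and 118.8 CPM, from 34, 66 and 63 reads. The groups overlap, and the lowest sum belonged to normal replicate 1, the library with the highest miR-205. The diabetic mean was 120.5 ± 19.4 CPM and the normal mean 109.9 ± 29.4 CPM (SD over n = 3), which is less than the libraries of either group spread (two-sided exact permutation p = 0.6, where 0.1 is the smallest that 3 against 3 allows). The log2 difference of 0.16 became -0.08 without normal replicate 1. Per read of miR-205, the family had 20.5, 12 and 10.8 reads in diabetic replicates 1, 2 and 3 and 1.42, 5.50 and 7.00 reads in normal replicates 1, 2 and 3. These ratios contain miR-205 and are given without a test.

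In limma's test across all 578 miRNAs that passed the filter, 0 of the 5 tested family members had a Benjamini-Hochberg adjusted p under 0.05, where 0% of all tested miRNAs did. At an unadjusted p under 0.05 there was 1 family member, against 8.82% of all tested. The edgeR and DESeq2 tests on recovered reads also called 0 family members at an adjusted p under 0.05. Of the 5, 4 had a positive and 1 a negative log2 difference, their median was 0.31, and the median over all 578 was 0.0046.

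miR-200a-3p, the most abundant member, showed nearly the same mean in both groups. It was at 58.9, 43.0 and 47.3 CPM in diabetic replicates 1, 2 and 3 and at 34, 56.8 and 56.6 CPM in normal replicates 1, 2 and 3. Both extremes, the highest and the lowest level, came from replicates numbered 1, and the groups overlap widely. The log2 difference was 0.04 with a 95% interval from -0.71 to 0.79 (limma adjusted p = 0.969), and its sign turned in the edgeR and DESeq2 tests and without diabetic replicate 1 or normal replicate 1.

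miR-200b-3p, made from the same gene cluster, was the only tested family member with a negative difference. It was at 29.5, 29.6 and 23.7 CPM in diabetic replicates 1, 2 and 3 and at 27.2, 46.7 and 37.7 CPM in normal replicates 1, 2 and 3. Normal replicate 1 fell among the diabetic values. The log2 difference was -0.39 with a 95% interval from -1.27 to 0.49 (limma adjusted p = 0.795). miR-429, the third miRNA of this cluster, was read 11 times in all and was at 0 in diabetic replicate 1 and in normal replicate 1. Its 95% interval, from -1.98 to 2.66 (limma adjusted p = 0.883), spans large differences of either sign.

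miR-200c-3p had the higher mean in the diabetic libraries, the opposite sign to miR-205. It was at 26.2, 21.5 and 9.1 CPM in diabetic replicates 1, 2 and 3, from 8, 8 and 5 reads. In normal replicates 1, 2 and 3 it was at 2.3, 4.1 and 11.3 CPM, from 1, 2 and 6 reads. Diabetic replicates 1 and 2 exceed all normal libraries, but diabetic replicate 3 lies below normal replicate 3. The diabetic mean was 18.9 ± 8.83 and the normal mean 5.90 ± 4.76 CPM (SD over n = 3), and the log2 difference was 1.63 with a standard error of 0.73. Its unadjusted p in limma was 0.041 and its adjusted p 0.492 (exact permutation p = 0.2), so it did not pass the adjusted threshold. The study itself screened miRNAs with the DESeq software. In limma, miR-200c-3p did pass the study's thresholds, log2 of 1 or more with p below 0.05 (read here as unadjusted). Those were passed by 4.67% of all tested miRNAs in either direction and by 2.94% as higher in diabetes. That call was lost with the DESeq2 and edgeR tests, at an unadjusted p of 0.0914 and 0.0622 (adjusted p = 0.839 and 0.571). In limma it was lost with the replicate block, with a pseudocount of 0.1 and without the filter. There the unadjusted p was 0.0594, 0.054 and 0.0513 (adjusted p = 0.619, 0.578 and 0.638). The log2 difference stayed above 1 in each of these, so the call was lost on p alone. The call was also lost without diabetic replicate 1, diabetic replicate 2, normal replicate 1 or normal replicate 2, where the limma p ran from 0.0768 to 0.12. The ratio of the means moved from 3.21 to 2.46 without normal replicate 1 and to 5.92 without normal replicate 3, the extremes of leaving out 1 library.

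miR-141-3p, which lies beside miR-200c in the genome, was at 19.6, 29.6 and 5.5 CPM in diabetic replicates 1, 2 and 3 and at 9.1, 16.2 and 11.3 CPM in normal replicates 1, 2 and 3. The diabetic libraries held both the highest and the lowest of these values. Its log2 difference was 0.31 with a 95% interval from -1.11 to 1.74 (limma adjusted p = 0.846) and turned to -0.15 without diabetic replicate 2.

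Summed by gene cluster, the contribution of miR-200c and miR-141 varied most in the diabetic libraries. miR-200c and miR-141 together were at 45.8, 51.1 and 16.4 CPM in diabetic replicates 1, 2 and 3 and at 11.4, 20.3 and 22.6 CPM in normal replicates 1, 2 and 3. Their means were 37.8 ± 18.7 and 18.1 ± 5.92 CPM (SD over n = 3; exact permutation p = 0.3). miR-200a, miR-200b and miR-429 together averaged 82.8 ± 5.25 CPM across diabetic and 91.8 ± 24.2 CPM across normal libraries (SD over n = 3; exact permutation p = 0.7). The libraries of the groups overlap for both clusters.

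**Figure D2:**
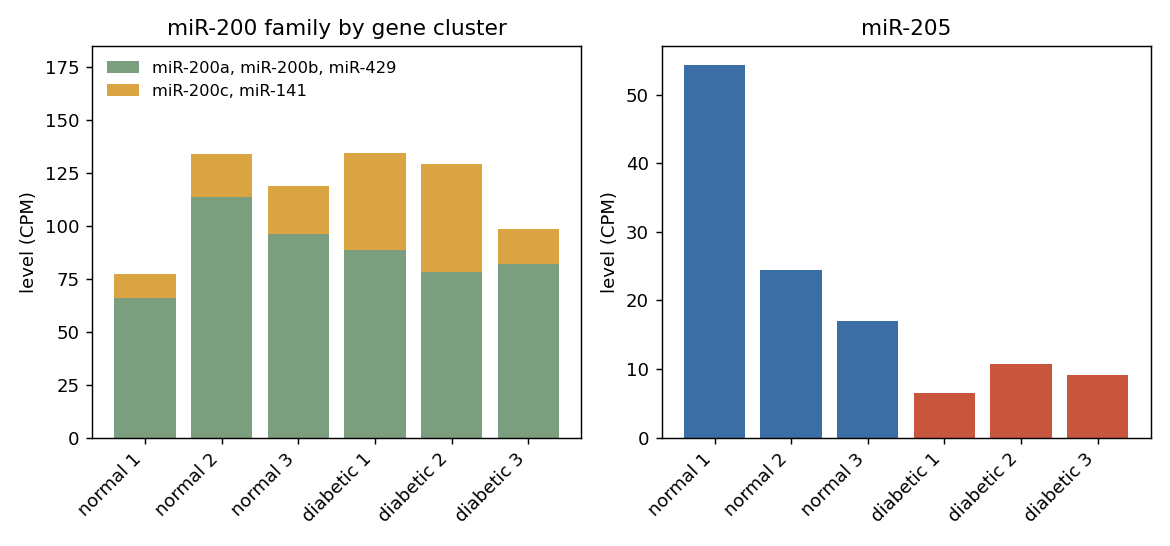
Stacked bars give the level in CPM of the miR-200 family in each library, split into its 2 gene clusters (left), and bars give miR-205 (right). Normal replicate 1 has the lowest family sum (77.1 CPM) and the highest miR-205 (54.4 CPM).

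Each mature miRNA molecule gives a single read, so levels of different miRNAs need no correction for length. Ligation preferences of library preparation also enter, so the orders below describe reads and may differ from the order of molecules. In the normal libraries the order of mean levels was miR-200a-3p (49.1 ± 13.1 CPM), miR-200b-3p (37.2 ± 9.76), miR-205 (31.9 ± 19.8), miR-141-3p (12.2 ± 3.63), miR-200c-3p (5.90 ± 4.76) and miR-429 (3.33 ± 4.24; SD over n = 3). In the diabetic libraries it was miR-200a-3p (49.7 ± 8.22 CPM), miR-200b-3p (27.6 ± 3.38), miR-200c-3p (18.9 ± 8.83), miR-141-3p (18.2 ± 12.1), miR-205 (8.80 ± 2.17) and miR-429 (4.23 ± 3.79; SD over n = 3). miR-205 thus stood above miR-141-3p and miR-200c-3p in one order and below both in the other, and its place is given without a test. Within the family, pairs were neighbours in the order of mean levels over these same 6 libraries. miR-200a-3p exceeded miR-200b-3p in 6 of 6 libraries. Its two-sided exact permutation p from sign flips within libraries was 0.0313, the smallest that 6 libraries allow. Adjusted over the 4 neighbouring pairs it was 0.125, which fails the correction. A pair alone at that smallest p could not have passed it. The other 3 pairs had exact permutation p from 0.0625 to 0.375 before adjustment.

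Other miRNAs known from epithelial tissues together reached a far higher level than the miR-200 family, and their summed level also overlapped between the groups. The list held miR-203 of keratinocytes, miR-192, miR-194 and miR-215 of gut, liver and kidney, miR-375 of pancreatic islets and secretory epithelium, miR-31, and the miR-183, miR-96 and miR-182 cluster of sensory epithelium. Of its 12 listed entries 11 were tested, 3 with a positive and 8 with a negative log2 difference, and their median was -0.17. In limma 0 of the 11 had an adjusted p under 0.05 and 0 an unadjusted p under 0.05, against 8.82% of all tested miRNAs for the latter. The lowest unadjusted limma p-values, named after they were seen, were 0.0503 (miR-194-5p), 0.0672 (miR-215, log2 difference -0.81) and 0.0776 (miR-31a-3p). All of these had a negative difference. The other negative members had limma p from 0.324 (miR-192-5p) to 0.925 (miR-183-5p), and the 3 with a positive difference had p of 0.249 or more. The summed level ran from 2970 to 3578 CPM in diabetic and from 3329 to 3710 CPM in normal libraries (exact permutation p = 0.5). miR-375-3p, the most abundant, was at 1152, 1384 and 1189 CPM in diabetic replicates 1, 2 and 3 and at 1197, 1299 and 821 CPM in normal replicates 1, 2 and 3, groups that overlap (limma adjusted p = 0.795).

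Groups did not overlap for 2 of these 11, against 14.9% of all tested miRNAs, and both are named after their values were seen. miR-31a-3p was at 3.3, 8.1 and 7.3 CPM in diabetic and 18.1, 22.3 and 9.4 CPM in normal replicates 1, 2 and 3, a log2 difference of -1.28 (SE 0.67, limma adjusted p = 0.634). Its partner arm miR-31a-5p did not share that direction, with a log2 difference of 0.22 (SE 0.56, limma adjusted p = 0.858). miR-194-5p averaged 724 ± 87.9 CPM across diabetic and 912 ± 169 CPM across normal libraries (SD over n = 3; limma adjusted p = 0.551).

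**Figure D3:**
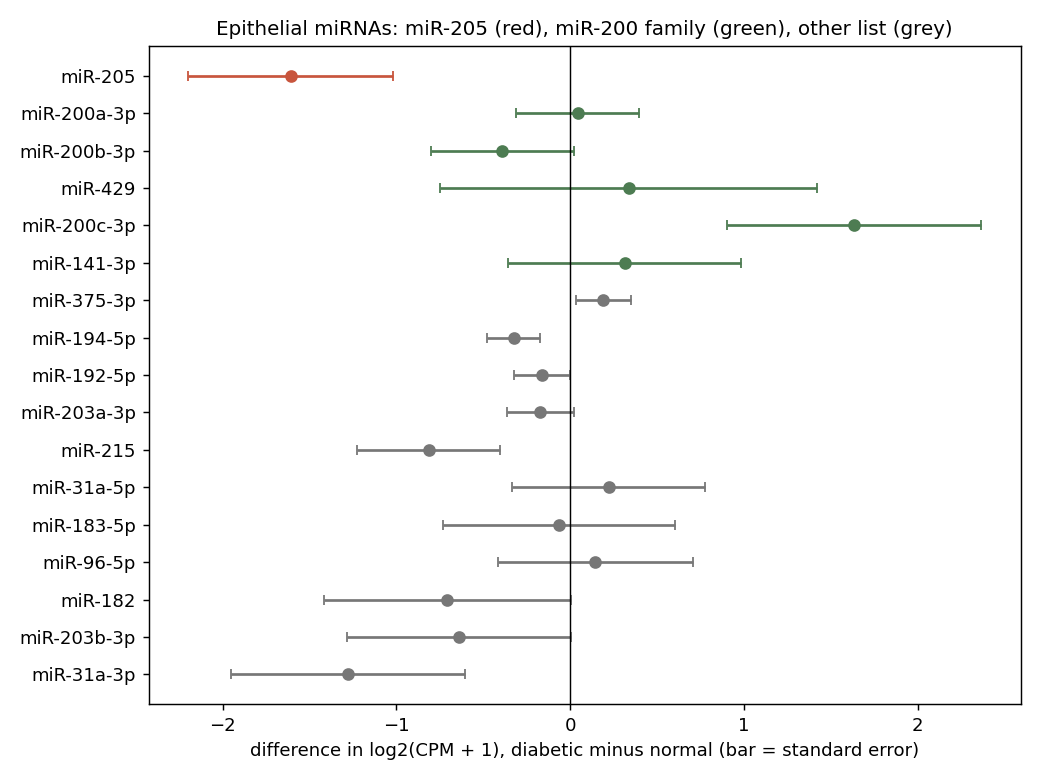
Difference in log2(CPM + 1), diabetic minus normal (horizontal axis), with its standard error as a bar, for miR-205 (red), the 5 tested miR-200 family members (green) and the 11 tested miRNAs of the other epithelial list (grey, in order of abundance). miR-205 at -1.61 and miR-200c-3p at 1.63 lie farthest from 0, on opposite sides.

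Markers of further cell types in the tissue gave these levels beside the miR-205 values. The 8 tested blood-cell miRNAs summed to between 956 and 1211 CPM in diabetic and between 1131 and 1332 CPM in normal libraries (exact permutation p = 0.2). Of these 8, 1 had a positive and 7 a negative log2 difference, with a median of -0.52 against 0.0046 over all tested miRNAs, and groups did not overlap for 2 of them, against 14.9% of all. Of those 2, miR-223-5p rested on 0, 0 and 1 reads in diabetic and 1, 1 and 1 in normal replicates 1, 2 and 3. The most abundant blood-cell miRNA, miR-486, had a log2 difference of -0.11 (limma adjusted p = 0.831), and miR-223-3p was at 0 in diabetic replicates 2 and 3 and in normal replicate 1. In this list 1 had an unadjusted limma p under 0.05, against 8.82% of all tested miRNAs, and 0 an adjusted one. That one, named after its values were seen, was miR-142-3p of white blood cells, at 339 ± 31.2 CPM across diabetic and 465 ± 64.8 CPM across normal libraries (SD over n = 3; log2 difference -0.45, limma adjusted p = 0.348). Striated-muscle miRNAs, 6 of 7 tested and led by miR-499-5p, summed to between 562 and 740 CPM in diabetic and between 523 and 639 CPM in normal libraries (exact permutation p = 0.6). Log2 differences were positive in 3 and negative in 3 of them (median -0.36). Contractile-cell miRNAs, 4 of 4 tested and led by miR-143-3p, ran from 85959 to 96015 and from 79267 to 97409 CPM (exact permutation p = 0.6), with 2 positive and 2 negative. Germ-cell miRNAs, 7 of 8 tested and led by miR-34c-5p, ran from 311960 to 333905 and from 307045 to 356042 CPM (exact permutation p = 0.6), with 2 positive and 5 negative (median -0.06). Groups did not overlap for 2 germ-cell, 0 striated-muscle and 0 contractile-cell miRNAs, against 14.9% of all tested. Each of these lists had 0 called at an unadjusted or adjusted p under 0.05, against 8.82% and 0% of all tested. Over the 8 sums compared by permutation, the family, its clusters and the marker lists, adjusted p-values ran from 0.686 to 0.7. The part of these cell types, or of epididymal tissue, in the miR-205 values was not tested.

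Finally, the miRNAs whose levels across the 6 libraries were most like those of miR-205 were sought among 296 others averaging at least 10 reads. Group means were not removed, so the search favours miRNAs that, like miR-205, were lower in the diabetic libraries. By Pearson correlation of log2(CPM + 1), given as a description over libraries that share their scaling, the closest were the predicted miRNA 17_40750 (0.93), miR-224-5p (0.91), the liver miRNA miR-122-5p (0.87), the predicted 11_31672 (0.85) and miR-532-3p (0.83). The 10-read minimum left only 2 of the 5 tested miR-200 family members and 5 of the 11 tested miRNAs of the other epithelial list among the candidates, so nothing is read from which of them appear here. In miR-224-5p, normal replicate 1 again stood highest at 283.3 CPM, while the other libraries lay between 188.1 and 209.1 CPM. Likewise miR-122-5p was at 2786 CPM in normal replicate 1, at 1839 and 1964 CPM in normal replicates 2 and 3, and at 1372, 1341 and 936 CPM in diabetic replicates 1, 2 and 3.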

How the data were processed

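Small RNA libraries of rat testis, 3 diabetic and 3 normal, were compared, grouped by their labels. The authors removed primers and adaptors from single-end reads, counted small RNAs, annotated known miRNAs from miRBase and deposited CPM values, rounded to 1 decimal under headings that say TPM. The submitters' processing notes name Bowtie 0.12.2, HISAT2 2.0, StringTie 1.3.0 and the build mm8, which is a mouse build, without giving roles; the label text describes a poly(A) library, and the study's small RNA description was followed. Nothing says how animals were assigned to libraries, so p-values measure only the spread between these libraries.

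Read counts were rebuilt from the deposited CPM as the smallest library total that made every value a whole number of reads within 0.05 CPM, which held for 100% of values in each library. Libraries of a group differed by more than counting noise (chi-square per degree of freedom from 6.47 to 20.0). All 6 were counted as separate samples, although that difference cannot show that they came from separate animals. The main test was limma 3.58.1 in R 4.3.3 (eBayes with a mean-variance trend, two-sided, Benjamini-Hochberg over 578 miRNAs with at least 1 CPM in 3 libraries) on log2(CPM + 1), which understates changes of scarce miRNAs. edgeR 4.0.16 and DESeq2 1.42.0 on recovered reads, other scalings, filters, a pseudocount of 0.1, a replicate block and leaving out each replicate were alternatives. Sums were compared by exact permutation. The script was tested on simulated data, where recovery of changes was required only for miRNAs averaging at least 10 reads. That test does not vouch for the scarcer members.

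Every listed member is named, with the most abundant miRNA of each marker list and the 5 most like miR-205 and the 5 most like the summed family. Members and lists were chosen with earlier results of these data known.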

Additional observations from a re-analysis of the deposited data

How the results depend on the processing

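The 1 family member past the study's thresholds, miR-200c-3p, became 0 with a pseudocount of 0.1, without a filter, under a filter of 10 reads per library, with the edgeR and DESeq2 tests and with the replicate block, and ranged from 0 to 1 without one replicate. The 10-read filter removed miR-200c-3p before testing. Its log2 difference stayed positive in all 14 alternatives run for it, from 1.21 to 2.16, with adjusted p from 0.469 to 0.839. The count of family members with an adjusted p under 0.05 was 0 in all alternatives. Among all miRNAs that count, 0 in the main test, became 8 without the mean-variance trend, 1 without a filter, 1 under the 10-read filter, 2 with edgeR, 1 with DESeq2, 1 with the replicate block and from 0 to 2 without one replicate, none of them in the family; the cause was not tested.

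miR-205 kept its direction, from -1.86 to -1.61 across other settings and from -1.96 to -1.15 without one replicate. The log2 difference of miR-200a-3p was -0.0334 with edgeR and -0.0329 with DESeq2. Without one replicate it ranged from -0.20 to 0.16, miR-141-3p from -0.15 to 0.96, miR-429 from -0.45 to 1.29 and the summed family from -0.0788 to 0.319. The labels give same-numbered libraries only a number in common. Their correlations of deviations were -0.113, -0.0733 and -0.0568 over 296 miRNAs, and each diabetic library correlated better with another number than with its own. Deviations from a mean of 3 libraries balance each other, so these correlations cannot settle whether same-numbered libraries shared a batch. The summed family differed by 0.16 with the replicate block. With at most 30 reads of any member in a library, depth limits every value here.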

Other observations

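The miRNAs most like the summed miR-200 family across the 6 libraries, among 294 others averaging at least 10 reads, were miR-652-3p, miR-30e-3p, miR-3580-5p, the predicted 11_31681_star and miR-9a-5p, with Pearson correlations of 0.98, 0.92, 0.88, 0.84 and 0.82 on the log2(CPM + 1) scale, given as a description. miR-652-3p was at 261.9, 250.0 and 222.0 CPM in diabetic replicates 1, 2 and 3 and at 199.4, 245.6 and 241.4 CPM in normal replicates 1, 2 and 3, lowest in normal replicate 1 as the family sum was. None of these 5 was among the 5 most like miR-205. Nothing is read from this, because short lists from so many candidates rarely share members.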
